A study of Mus musculus with 9 samples.

Results

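Gene expression in the uterus of mice lacking Mig-6 was compared with that in control mice on gestation day (GD) 3.5, shortly before the embryo implants. The comparison used 6 of the 9 arrays of the series, the 3 titled Mig-6 d/d and the 3 titled control, over all 45037 probe sets, short groups of probes that each read a transcript on an Affymetrix mouse genome array. The Mig-6 d/d mice were Pgr cre/+ Mig-6 f/f. Their cre recombinase is expressed from the progesterone receptor gene (Pgr) and removes floxed Mig-6 in the cells of the uterus that express Pgr, and 1 of their Pgr alleles carries cre. The control mice carried floxed Mig-6 (Mig-6 f/f), in part together with floxed Erbb2 (Erbb2 f/f), and the genotype behind each control array is not stated in the sources at hand. All mice had a mixed C57BL/6 and 129P2/OlaHsd background and were mated with C57BL/6 males, with the morning of the plug as GD 0.5. The methods give an age of 8 to 12 weeks, whereas the labels give 2 weeks. RNA of whole uteri was pooled from more than 3 mice per genotype, and the sources do not say if each array had a pool of its own. The p-values then measure only the spread between arrays, which may be technical. The other 3 arrays, of mice that lack Erbb2 as well (the same alleles with Erbb2 f/f added, the double knockout below), were used only to estimate the spread and are given beside some results.

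MIG-6 is an adaptor protein, encoded by Errfi1, that binds the kinase domain of the epidermal growth factor receptor family (EGFR and ERBB2 to ERBB4) and restrains their signaling through RAS and ERK. In the uterus, estrogen drives the proliferation and the secretion of the epithelium, and progesterone stops this proliferation before implantation, acting partly through Indian hedgehog from the epithelium and COUP-TFII (Nr2f2) in the stroma. Mig-6 is known as a gene that progesterone induces there.

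Intensities were deposited as linear values, normalized by the authors, and log2 values were taken from them here. A log2 fold change below is the mean log2 intensity of the Mig-6 d/d arrays minus that of the control arrays, with its standard error (SE). Calls were made at an adjusted p under 0.05 in limma with a difference above 1.5-fold, and a gene was read at the brightest of its probe sets on average. Array values are given in the order of replicates 1, 2 and 3, with control first. Each call was made again without each of the 9 arrays in turn. The labels were checked on Errfi1, which read 454, 564 and 286 in control and 15.1, 16.0 and 255 in the arrays labelled Mig-6 d/d. The array labelled Mig-6 d/d replicate 3 thus lay near the control level at this probe set, and at another, which read 65.1, 59.5 and 33.7 in control and 11.15, 10.01 and 37.01 in Mig-6 d/d. The positions of these probe sets relative to the deleted part are not stated in the sources at hand. The log2 fold change of Errfi1 was -3.41 (SE 0.90, adjusted p = 0.0719, limma), and without that array it was -4.75 (adjusted p = 0.00342). The arrays read Esr1, the estrogen receptor of the uterus, at 1490 to 2051 and Pgr at 588 to 1613, where the median of all probe sets was 7.87 to 8.24 per array.

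Each array was set against probe sets called without it. Without the array labelled Mig-6 d/d replicate 3, 239 probe sets were called increased from the remaining arrays, and in the array itself these lay at a median log2 difference of 1.202 from the control mean, against 1.15 in the other arrays labelled Mig-6 d/d. Of the 239, 99.2% lay above the control mean in it. The 180 probe sets called decreased without it had a median of -0.64 in it and -0.85 in the others, and 97.8% lay below the control mean. When each of the 6 arrays was left out in turn, the median difference carried by the array left out was between 0.49 (control replicate 1) and 1.40 (control replicate 2) for increased probe sets and between -0.47 (control replicate 3) and -0.78 (control replicate 2) for decreased ones. Between 91.7% and 100% of increased and between 88.1% and 99.7% of decreased probe sets lay on the called side there. The arrays of the other group entered both the call and this difference, so a difference in the called direction is built in to some extent. These values are a description, and they do not settle the label of any array.

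**Figure D1:**
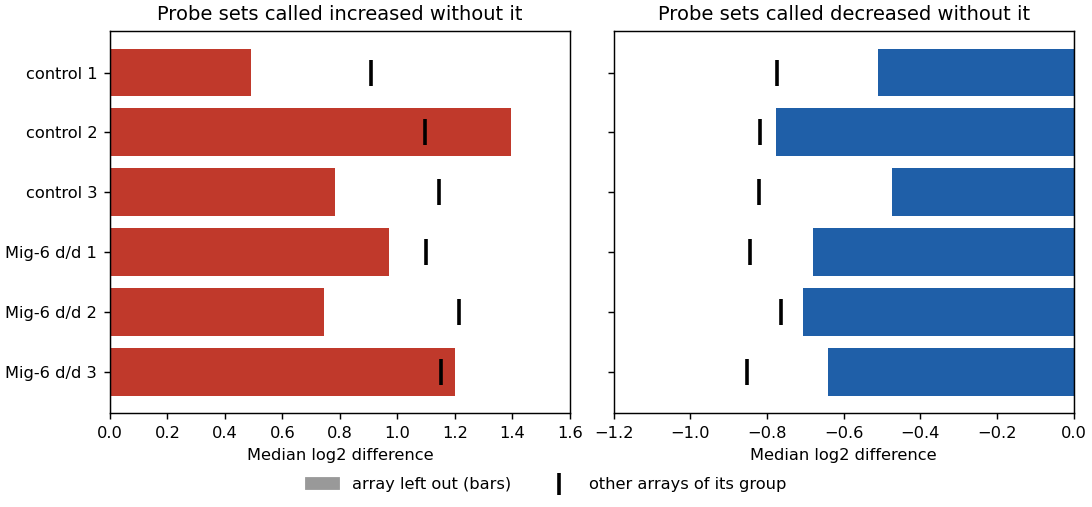
Median log2 difference between Mig-6 d/d and control for the probe sets called increased (left) or decreased (right) without the array named on the vertical axis, as carried by that array (bars) and by the other arrays of its group (black marks). The bars run from 0.49 to 1.40 and from -0.47 to -0.78, with 1.202 and -0.64 for the array labelled Mig-6 d/d replicate 3. The other group's arrays entered the call as well, which favours the called direction.

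In Mig-6 d/d, 772 probe sets were increased and 493 decreased, which is 1.71% and 1.09% of those tested. At 1 probe set per gene, 463 of 18193 genes rose (2.54%) and 328 fell (1.8%). Increases were the larger changes. Of the genes that rose, 256 changed more than 2-fold, 48 more than 4-fold and 6 more than 8-fold, whereas 24 of those that fell changed more than 2-fold and 0 more than 4-fold. The genes that rose started from a median control intensity of 41.4 and those that fell from 100.3, where the median of all genes was 24.9. Of the 463, 37 had a control level at or under the median of all values, where signal over background was not judged and the fold change is not exact. A total of 96 increased and 45 decreased genes kept the call without each of the 9 arrays. The counts were lowest without control replicate 2, where 133 increased and 83 decreased genes were called. They were 135 and 85 without the array labelled Mig-6 d/d replicate 1 and 143 and 122 without replicate 3. Leaving out Mig-6 d/d replicate 2 gave 493 and 196, and leaving out control replicate 1 gave 590 and 421. Of 972 genes with any called probe set, 616 had 2 or more probe sets, and 169 of these had 2 or more called. Most of the 616 thus had no second call. Among the 169, the called probe sets moved the same way in all. Mcm3 and Frk, which encodes a kinase of the SRC family, had 4 increased probe sets each, Ddx39a, an RNA helicase gene, also 4, and Zbtb20 and Vldlr, which encode a transcription factor and a lipoprotein receptor, had 5 and 4 decreased ones. Mcm3 and Frk were not called without control replicate 2 or the arrays labelled Mig-6 d/d replicate 1 or 3 (adjusted p up to 0.113) nor Frk without replicate 2 or, of the double knockout, replicate 1 or 2, and Zbtb20 was not called without any array of control or Mig-6 d/d or double-knockout replicate 1 (adjusted p up to 0.0989).

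**Figure D2:**
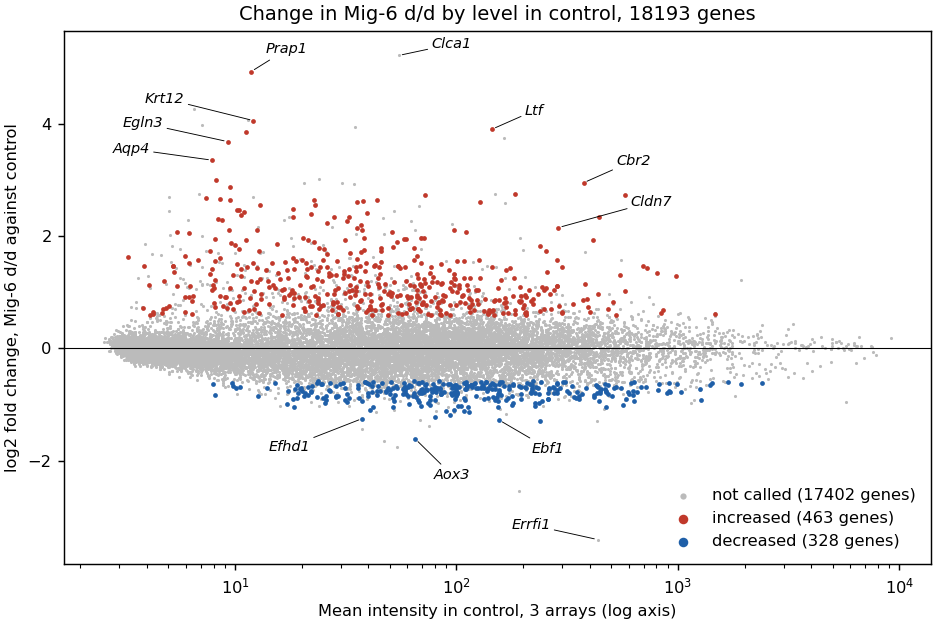
Mean control intensity (horizontal, log axis) and log2 fold change between the groups (vertical) of 18193 genes; red points are the 463 increased, blue points the 328 decreased and grey points genes not called. Increases reach 4.93 (Prap1) and decreases -1.62 (Aox3), while Clca1 at 5.22 and Errfi1 at -3.41 are not called.

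Aqp4, a water channel gene, read 8.74, 7.03 and 7.85 in control and 76.3, 81.0 and 82.8 in Mig-6 d/d. Its arrays were nearly equal within each group and lay apart (log2 fold change 3.35, SE 0.10, adjusted p = 5.6e-07, limma). The keratin gene Krt12 read 14.2, 11.8 and 10.3 in control and 126, 188 and 335 in Mig-6 d/d (log2 fold change 4.06, SE 0.30, adjusted p = 0.00104). Egln3, which encodes a prolyl hydroxylase that senses oxygen, read 7.89, 9.63 and 10.3 against 133, 47.3 and 262 (log2 fold change 3.68, SE 0.55, adjusted p = 0.0118). The control levels of Aqp4 and Egln3 lay near the median of all probe sets. The groups did not overlap for these 3 genes, as for all 463 increased and all 328 decreased genes, although Egln3 varied several-fold among the Mig-6 d/d arrays. Tspan1, a tetraspanin gene of epithelia, read 68.0, 57.0 and 92.0 in control and 575, 298 and 617 in Mig-6 d/d (log2 fold change 2.74, adjusted p = 0.00882). Cbr2, a carbonyl reductase gene, Prss22, which encodes a secreted serine protease, Tmem54, Rnf180, a ubiquitin ligase gene, and Slc28a3, a nucleoside transporter gene, rose with log2 fold changes of 2.38 to 2.95. These 9 genes and Aldoc, described with glycolysis below, were the 10 largest changes that kept the call without each of the 9 arrays. All 10 stood at 7.05 to 90.8 in the double knockout, apart from Cbr2 at 804, where control had 375 and Mig-6 d/d 2866.

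**Figure D3:**
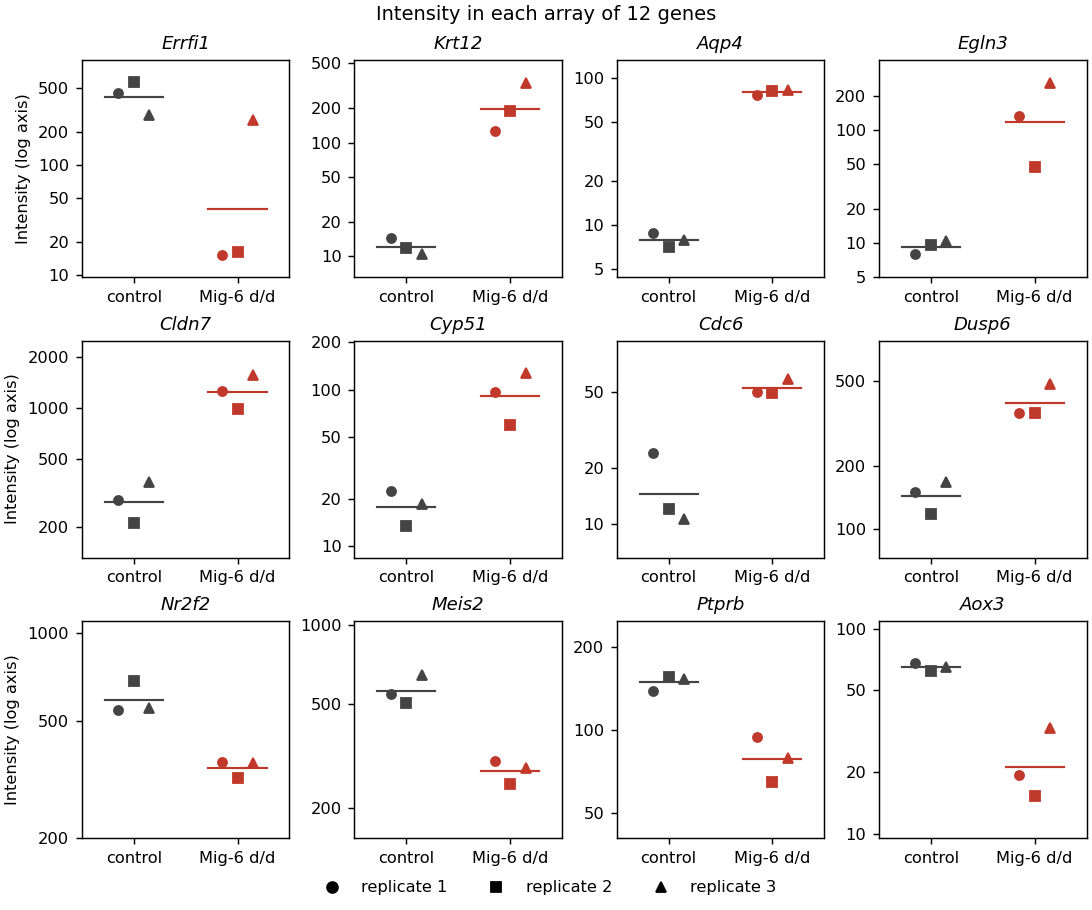
Intensity (log axis) of 12 genes in each array of control (grey) and of Mig-6 d/d (red), with the replicate number as the symbol and the geometric mean as a line. The groups lie apart for 12 of 12 genes, as they do for all 463 increased and all 328 decreased genes and for 25.7% of all genes. Errfi1, which is not called, in Mig-6 d/d replicate 3 (255) lies next to control replicate 3 (286).

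Of 19 measured marker genes of simple epithelium, 11 rose, 0 fell and all 19 were higher in Mig-6 d/d, with a median log2 fold change of 1.38. In every array labelled Mig-6 d/d the median lay above that of every control array, at 1.11 to 1.55 against -0.32 to 0.51 relative to the control mean, and the summed intensity of the markers was 9383 to 13824 against 3675 to 6499. Control replicate 3 was the highest of its group. Cldn7, which encodes a claudin of tight junctions, read 287, 210.4 and 369 in control and 1266, 983 and 1567 in Mig-6 d/d (log2 fold change 2.15, SE 0.27, adjusted p = 0.00819) and kept the call without each array. The keratin genes Krt7 and Krt19 rose by 2.61 and 1.92. In whole uterus, more epithelial cells and more RNA per epithelial cell cannot be told apart, nor can fewer cells of a type and less RNA per cell. The number of these markers called was 2 without the array labelled Mig-6 d/d replicate 1, 3 without replicate 3, 3 without control replicate 2, 5 without control replicate 1, 5 without double-knockout replicate 2 and 8 to 14 without the others, while the median stayed between 1.12 and 1.52. Krt7 and Krt19 were not called in the first 5 of these settings (adjusted p up to 0.142) nor without double-knockout replicate 1.

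Of 29 genes of epithelial junctions, 10 rose, 0 fell and 4 were lower without a call (median 0.93). They included Cldn7, the desmosomal cadherin gene Dsc2 (log2 fold change 1.90, adjusted p = 0.0298) and the tight junction gene Marveld3 (1.71, adjusted p = 0.0342). Of 20 epithelial transcription and splicing factors, 4 rose, 0 fell and 4 were lower without a call (median 0.55). Some of these lists share members. Grhl2, a master regulator of epithelial junction genes, read 51.7, 41.0 and 63.7 in control and 126, 117 and 107 in Mig-6 d/d (log2 fold change 1.18, adjusted p = 0.0115), and the splicing regulators Esrp1 and Esrp2 rose by 1.501 and 1.244. Grhl2 kept its call without each array. Dsc2, Marveld3, Esrp1 and Esrp2 were not called without the arrays labelled Mig-6 d/d replicate 1 or 3 (adjusted p up to 0.127), nor, except Dsc2, without control replicate 2, Marveld3 and Esrp1 also without control replicate 1 and double-knockout replicates 1 and 2, Dsc2 and Esrp1 also without Mig-6 d/d replicate 2, and Esrp1 without double-knockout replicate 3. The junction list had 1 gene called without the array labelled Mig-6 d/d replicate 1, 1 without replicate 3, 3 without control replicate 2, 6 without control replicate 1 and 6 without double-knockout replicate 2, and the factor list 1 without each of the first 3 and 2 without control replicate 1 or, of the double knockout, replicate 1 or 2. Of 20 genes of stratified and cornified epithelium, 0 were called by limma (median -0.09, 5 at an unadjusted p under 0.05), near the shares of all genes (2.54% and 1.8%), and the difference from the other lists was not tested. Of 3 probe sets of Sbsn in this list, 1 that was not read was called decreased. Sprr1a among them read 5.87, 6.31 and 9.02 in control and 262, 15.6 and 325 in Mig-6 d/d, with a log2 fold change of 3.99 that was not called (SE 1.08, adjusted p = 0.0751).

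Of 9 measured genes that estrogen induces in secretory epithelium, 4 rose, all 9 were higher and the median log2 fold change was 3.903. Ltf, which encodes the secreted iron-binding protein lactoferrin, read 73.8, 81.5 and 279 in control and 1797, 1477 and 2124 in Mig-6 d/d (log2 fold change 3.903, SE 0.80, adjusted p = 0.0321). Prap1, a gene of a secreted proline-rich acidic protein, read 12.2, 7.87 and 15.4 against 779, 234 and 231 (4.93, SE 0.78, adjusted p = 0.0134). Both were far above control in every Mig-6 d/d array, and Prap1 was highest in replicate 1. Sprr2f and the complement gene Cfb rose by 2.73 and 2.60. Clca1, a secreted regulator of chloride channels, and Muc1, the cell surface mucin of the luminal epithelium, did not pass the test, with values of 24.3, 7.37 and 133 against 2119, 551 and 1046 for Clca1 (log2 fold change 5.22, SE 1.37, adjusted p = 0.0693) and of 32.7, 30.7 and 76.6 against 325, 81.9 and 364 for Muc1 (2.33, SE 0.68, adjusted p = 0.0951). The groups did not overlap for either, as for 25.7% of all genes. All 4 calls depended on single arrays. Without control replicate 2 or the array labelled Mig-6 d/d replicate 1, none was made (adjusted p 0.0525 to 0.138), without replicate 3 Prap1 alone was called, and Ltf and Sprr2f were also lost without control replicate 1 or Mig-6 d/d replicate 2, and Sprr2f without double-knockout replicate 1. The same arrays held the marker levels of epithelium given above, and the part of these in the result was not tested.

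In the lists of mucosal defense and proteases more genes rose than fell, where 2.54% of all genes rose and 1.8% fell. Markers of epithelium were higher (19 of 19) and markers of stroma lower (15 of 16) in the same arrays, and their part was not tested. Of 20 genes of mucosal defense and complement, 3 rose and 1 fell (median 0.86), while 1 rose without control replicate 2 or the arrays labelled Mig-6 d/d replicate 1 or 3, 5 without replicate 2 and 6 without double-knockout replicate 3. Wfdc2, which encodes a secreted protein with a whey acidic domain, read 741, 829.6 and 1362 in control and 2295, 2349 and 2251 in Mig-6 d/d (log2 fold change 1.29, SE 0.19, adjusted p = 0.0113), and C1s1, a gene of the first complement component, fell by 0.61. Of 25 genes of epithelial proteases, serpins and their relatives, 8 rose and 2 fell (median 0.61). Prss22 read 9.19, 8.4 and 10.8 against 50.2, 55.3 and 119, and the membrane-bound serine proteases Tmprss4 and St14 rose by 2.15 and 1.79. The genes that fell were Timp2 and Timp3, which encode inhibitors of matrix metalloproteinases (-0.78 and -0.72). Of 21 chemokine genes, 2 rose and 1 fell, the epithelial Cxcl17 and Ccl28 (2.11 and 1.96) and the stromal Cxcl12 (-0.81). Wfdc2 and Prss22 kept their calls without each array. None of the others named here was called without control replicate 2 or, apart from Cxcl17, without the array labelled Mig-6 d/d replicate 3 (with adjusted p up to 0.149). Tmprss4, St14, Timp2, Cxcl17 and Ccl28 were also lost without replicate 1, C1s1, Timp2, Timp3 and Ccl28 without replicate 2, St14 and Ccl28 without control replicate 1, Timp2 and Timp3 without control replicate 3, Ccl28 without double-knockout replicates 1 and 2, St14 without 2, and Timp2 without 3. The protease list then had 1 gene increased without control replicate 2 or Mig-6 d/d replicate 1 or 3 and 5 without control replicate 1 or, of the double knockout, replicate 2.

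Of 11 aquaporin genes, Aqp4 and Aqp5 rose, the latter from 32.1, 43.6 and 60.1 to 92.5, 113 and 129 (log2 fold change 1.33, adjusted p = 0.0437), and the median of the list was -0.02. Of 17 genes of fluid and ion transport, Fxyd3, a regulator of the sodium pump, was the 1 gene that rose (1.30). Near the shares of all genes (2.54% increased and 1.8% decreased), 0 of 7 genes of calcium handling were called in the limma fit, with 2 at an unadjusted p under 0.05. The calcium channel gene Trpv6 among them read 6.24, 5.26 and 9.18 against 79.7, 13.8 and 83.0 (2.75, SE 0.70, adjusted p = 0.0640). Of 16 genes that handle iron and other metals, 4 rose and 1 fell. The number that rose was 1 without control replicate 2 or the array labelled Mig-6 d/d replicate 3, 2 without Mig-6 d/d replicate 1 or 2, and 6 without double-knockout replicate 3. Tfrc, the transferrin receptor that takes up iron, read 132, 87.4 and 111 in control and 484, 319 and 609 in Mig-6 d/d (log2 fold change 2.07, SE 0.25, adjusted p = 0.00764) and kept its call without each array. The ferroxidase gene Cp rose by 1.55 and its relative Heph fell by 0.80. Of 17 genes of oxidoreductases and detoxification, Cbr2 and Gsta4, a glutathione transferase gene, rose (2.95 and 0.91) and the aldehyde oxidase genes Aox1 and Aox3 fell. Aox3 read 68.1, 62.5 and 65.1 in control and 19.3, 15.3 and 32.7 in Mig-6 d/d (log2 fold change -1.62, SE 0.24, adjusted p = 0.0115). Aox1 read 37.9, 43.1 and 44.7 against 19.5, 17.8 and 24.4 (-1.04, SE 0.15, adjusted p = 0.0112), and both kept their calls without each array. Aqp5, Fxyd3, Cp, Heph and Gsta4 were not called without control replicate 2 or the array labelled Mig-6 d/d replicate 3 (with adjusted p up to 0.133), and all but Gsta4 not without replicate 1. Aqp5, Fxyd3 and Heph were also lost without control replicate 1 and 1 or more double-knockout replicates, Aqp5 and Fxyd3 without Mig-6 d/d replicate 2, and Cp without double-knockout replicate 2.

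Of 16 genes of cholesterol synthesis, 11 rose, 0 fell and 15 were higher, with a median log2 fold change of 0.97. Cyp51, the lanosterol demethylase, read 22.6, 13.5 and 18.5 in control and 97.2, 59.3 and 129 in Mig-6 d/d (log2 fold change 2.34, SE 0.31, adjusted p = 0.00903). Msmo1, a sterol oxidase that acts after it, read 36.7, 26.9 and 34.2 against 193, 91.8 and 248 (2.34, SE 0.33, adjusted p = 0.0104), and Idi1, which makes the building block of isoprenoids, 60.5, 43.7 and 48.6 against 231, 127 and 322 (2.07, SE 0.29, adjusted p = 0.0104). In all 3 genes the groups lay apart and Mig-6 d/d replicate 2 was the lowest of its group. Per array, the median of the list relative to the control mean was -0.12 to 0.07 in control and 1.29, 0.60 and 1.46 in Mig-6 d/d. These 3 kept their calls without each array, and 3 to 13 genes of the list were called with an array left out, 4 without control replicate 2, 3 without the array labelled Mig-6 d/d replicate 1 and, when replicate 3 was left out, 4. The marker levels of epithelium given above moved with this list, and their part in it was not tested. In the double knockout the 3 genes stood at 33.5, 43.4 and 67.9 (means of 3 arrays). Of 16 genes of fatty acid synthesis and activation, 3 rose (median 0.42), all long-chain acyl-CoA synthetases, Acsl3 (1.31), Acsl4 (1.12) and Acsl5 (0.67). Each of these was lost without control replicate 2 or the array labelled Mig-6 d/d replicate 1, and Acsl4 and Acsl5 also without replicate 2 or 3 (adjusted p up to 0.112), Acsl4 further without control replicate 3 or, of the double knockout, replicate 3 and Acsl5 without control replicate 1.

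Of 24 genes of glycolysis and the response to hypoxia, 4 rose and 0 fell (median 0.33), while 8 rose without Mig-6 d/d replicate 2 and 3 to 5 without any other array. The epithelial marker levels (median 1.38, 19 of 19 higher) moved with this list as well, and their part was not tested. Aldoc, a brain-type aldolase, read 36.1, 23.8 and 53.1 in control and 296, 201 and 179 in Mig-6 d/d (log2 fold change 2.62, SE 0.32, adjusted p = 0.00819). Hk2, the hexokinase that commits glucose to metabolism, read 60.5, 57.4 and 46.3 against 143, 135 and 179.8 (1.47, SE 0.14, adjusted p = 0.00291). Both kept their calls without each array, as did Egln3. Of 12 genes of arginine and polyamine metabolism, 2 rose, the ornithine decarboxylase gene Odc1 (0.74) and Sat1 (0.96), which acetylates polyamines for export. Of 22 genes of protein folding and secretion in the endoplasmic reticulum, Creld2 rose (0.79) and 19 were higher (median 0.31). Odc1, Sat1 and Creld2 were lost without control replicate 2 or the arrays labelled Mig-6 d/d replicate 1 or 3 (adjusted p up to 0.125), Odc1 also without replicate 2, Odc1 and Creld2 without control replicate 3, and Creld2 without double-knockout replicates 1 and 3. Genes of the proteasome and of ribosome biogenesis were higher in 29 of 31 and 21 of 22 cases but moved little, with medians of 0.26 and 0.22 and 0 called by limma, where 15 and 7 had an unadjusted p under 0.05. Both counts of 0 lie near the shares of all genes (2.54% increased and 1.8% decreased). Psmb5, a catalytic subunit of the proteasome, read 491, 522 and 456 against 683, 754 and 733, and missed the call on its size (log2 fold change 0.56, adjusted p = 0.0164).

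Genes of DNA replication stood above control. Of 25 genes that license replication origins, 8 rose, 0 fell and 22 were higher (median 0.48). Of 35 genes of the replication fork and the nucleotide supply, 7 rose and all 35 were higher (median 0.46). Of 25 mitosis genes, Mad2l1, a spindle checkpoint gene, was the 1 gene that rose (1.08, adjusted p = 0.0353) and 24 were higher (median 0.31), and of 22 genes of G1 cyclins, their kinases, inhibitors and E2F factors, E2f8 and Rbl1 rose (0.97 and 0.83), whose products repress the genes of S phase. The difference between these lists was not tested. Cdc6, which loads the MCM helicase, read 23.9, 12.03 and 10.6 in control and 50.04, 49.7 and 59.0 in Mig-6 d/d (log2 fold change 1.86, SE 0.25, adjusted p = 0.00906). Hells, a chromatin remodeler of replicating cells, read 97.8, 49.0 and 60.6 against 184, 191 and 193 (1.52, SE 0.22, adjusted p = 0.0115), and Mcm10, which starts the helicase, 30.2, 18.8 and 21.1 against 52.5, 45.3 and 66.3 (1.24, SE 0.19, adjusted p = 0.0121). Control replicate 1 was the highest of its group in each of these. Its median over the licensing list was 0.26 above the control mean, level with Mig-6 d/d replicate 1 at 0.25, while the other Mig-6 d/d arrays stood at 0.58 and 0.43. Cdc6, Hells, Mcm10 and the clamp loader gene Rfc3 (0.86, adjusted p = 0.0143) kept their calls without each array, as did Gmnn, an inhibitor of licensing (1.15), Gins2, a part of the helicase (0.97), and the chromatin assembly gene Chaf1b (0.76), which were named after their values had been seen. Mki67, the gene of the Ki67 protein, read 346, 316 and 356 in control and 269, 307 and 343 in Mig-6 d/d (log2 fold change -0.15, SE 0.16, adjusted p = 0.687), and Ccnd1, cyclin D1, 377, 412 and 402 against 489, 387 and 499.6 (0.20, SE 0.15, adjusted p = 0.550). The groups overlapped for both. The helicase subunits Mcm3 (1.25), Mcm4 (0.70), Mcm5 (1.08) and Mcm6 (0.69), Pcna (0.68) and Uhrf1 (1.03) rose, but none was called without control replicate 2 or the arrays labelled Mig-6 d/d replicate 1 or 3 (adjusted p up to 0.157), and Mcm4, Mcm5, Mcm6 and Pcna also not without control replicate 3 or Mig-6 d/d replicate 2 (adjusted p up to 0.116), while Mcm2 at 0.63 was not called at its brightest probe set (adjusted p = 0.0722) and was called at the other of its 2. Mad2l1 and E2f8 were lost without control replicate 2 or Mig-6 d/d replicate 3 and Mad2l1 also without replicates 1 and 2 and double-knockout replicate 2 (adjusted p up to 0.112), and Rbl1, Mcm4, Mcm5 and Pcna were called only without control replicate 1. Between 4 and 10 of the licensing genes and between 3 and 15 of the fork genes were called with an array left out, the most without control replicate 1 and the fewest without control replicate 2 or the array labelled Mig-6 d/d replicate 3. Without control replicate 1, 6 mitosis genes were called. The epithelial marker levels moved with these lists too, and their part was not tested.

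Many genes of S phase are bound by E2F factors, which recognize GC-rich words before their start sites. Promoter sequences were taken from RefSeq (GRCm38.p6), 250 bases before to 50 bases after the start site, in the direction of transcription. They were found for 14452 of the 18193 genes. The words TTTGGCGC, TTTCCCGC, TTTCGCGC and TTTGCCGC were searched on both strands, where words that overlap count separately. A share of promoters here and below is a share of genes, each counted once if any of its start sites had a word. Genes with more start sites thus had more chances to hold one. At least 1 of the words stood in 3.81% of all promoters, in 8.15% of those of increased genes (29 of 356) and in 2.45% of those of decreased genes (6 of 245). In the replication lists 19 of 50 promoters (38%) held one, among them 7 of the 12 of increased members (58.3%). These 4 promoters are printed because they belong to replication genes that rose and hold these words, 3 of genes that kept the call without each array and that of Mcm6, which held the most among the increased replication genes. The words are in capitals on the strand shown. The word of Cdc6 (chr11:98907901-98908200, plus strand) starts 138 bases before the start site, that of Hells (chr19:38930740-38931039, plus strand) 62 bases before it, the 2 of Rfc3 (chr5:151651159-151651458, minus strand) 10 bases before it and at it, and the 3 of Mcm6 (chr1:128359656-128359955, minus strand), 2 of which overlap, from 110 to 47 bases before it.
Cdc6: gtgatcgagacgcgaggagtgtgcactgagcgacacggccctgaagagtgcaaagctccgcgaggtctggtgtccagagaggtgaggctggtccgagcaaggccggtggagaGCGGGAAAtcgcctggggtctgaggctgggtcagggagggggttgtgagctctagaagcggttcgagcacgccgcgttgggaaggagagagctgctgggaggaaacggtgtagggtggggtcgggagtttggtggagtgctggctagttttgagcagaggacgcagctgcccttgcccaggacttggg
Hells: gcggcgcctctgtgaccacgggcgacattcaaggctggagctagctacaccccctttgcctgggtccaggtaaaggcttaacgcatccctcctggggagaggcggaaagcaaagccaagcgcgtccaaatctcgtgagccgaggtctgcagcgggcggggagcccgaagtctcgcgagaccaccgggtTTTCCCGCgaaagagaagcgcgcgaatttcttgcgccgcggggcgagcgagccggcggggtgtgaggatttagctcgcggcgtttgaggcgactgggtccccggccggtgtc
Rfc3: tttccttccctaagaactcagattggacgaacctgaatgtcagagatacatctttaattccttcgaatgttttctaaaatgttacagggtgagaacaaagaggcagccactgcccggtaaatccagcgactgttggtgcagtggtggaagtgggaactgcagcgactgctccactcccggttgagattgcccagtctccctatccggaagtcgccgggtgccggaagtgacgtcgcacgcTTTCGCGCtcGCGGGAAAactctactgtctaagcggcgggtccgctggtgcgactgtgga
Mcm6: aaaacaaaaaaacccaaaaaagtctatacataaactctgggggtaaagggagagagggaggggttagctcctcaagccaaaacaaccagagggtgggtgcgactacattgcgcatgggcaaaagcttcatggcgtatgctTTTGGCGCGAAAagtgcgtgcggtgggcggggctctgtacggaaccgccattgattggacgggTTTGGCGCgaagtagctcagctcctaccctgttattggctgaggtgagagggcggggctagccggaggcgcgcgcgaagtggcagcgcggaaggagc
Other words were searched in the same way. CCAAT stood in 42% of all promoters, 44.1% of increased and 46.1% of decreased genes, the AP-1 word TGANTCA in 7.54%, 9.55% and 5.31%, the ETS word CCGGAAGT in 6.62%, 4.78% and 2.45%, and the nuclear receptor half-site AGGTCA in 16.5%, 14% and 13.9%. In the promoters of the replication lists, CCAAT stood in 56% (75% of those of increased members), CCGGAAGT in 18% (25%), TGANTCA in 2% (0%) and AGGTCA in 12% (16.7%), so CCAAT and CCGGAAGT were also more frequent there than in all promoters. A match is not a site of binding, and the sets were not tested against each other.

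In the ERBB pathway itself, 0 of 10 receptor and adaptor genes and 0 of 10 ligand genes were called by limma at the probe set read for each gene, with 6 and 1 at an unadjusted p under 0.05. Over all genes 4.35% were called and 24.0% had an unadjusted p under 0.05, so the counts of 0 are no result about the pathway. Erbb2, the receptor without a ligand of its own, read 29.4, 36.7 and 45.7 in control and 46.5, 39.5 and 44.5 in Mig-6 d/d (log2 fold change 0.24, SE 0.24, adjusted p = 0.672), and Egfr 196, 156 and 93.5 against 119, 107 and 138 (-0.24, SE 0.24, adjusted p = 0.690). The groups overlapped for both. Erbb3, a receptor with an inactive kinase, read 56.1, 32.3 and 91.3 against 138, 109.8 and 139 (1.22, SE 0.31, adjusted p = 0.0642), and Lrig1, which encodes a feedback inhibitor of ERBB receptors, 92.7, 57.8 and 118 against 358, 150.0 and 296 (1.55, SE 0.40, adjusted p = 0.0646). The arrays lay apart for Erbb3 and Lrig1, as for 25.7% of all genes. Of 3 probe sets of Lrig1, 1 that was not the brightest was called increased. Erbb3 was called without control replicate 3 (adjusted p = 0.0147), and Lrig1 when Mig-6 d/d replicate 2 was left out (adjusted p = 0.0325) or, of the double knockout, replicate 3 (adjusted p = 0.0475). The ligands Btc and Tgfa had log2 fold changes of 0.53 and 0.27 (adjusted p = 0.158 and 0.378). Of 16 genes of ERK feedback and ERK targets, 3 rose and 0 fell (median 0.27). The epithelial marker levels (median 1.38, 19 of 19 higher) moved with these genes, and their part was not tested. Dusp6, a phosphatase that inactivates ERK, read 150.2, 118 and 168 in control and 354, 353 and 484 in Mig-6 d/d (log2 fold change 1.45, SE 0.17, adjusted p = 0.00764) and kept its call without each array. The ETS factor gene Etv5 read 82.5, 80.2 and 97.4 against 129, 177 and 165 (0.85, SE 0.14, adjusted p = 0.0148), and Dusp4, another phosphatase gene, rose by 0.84 from a control level near the median of all probe sets. Of 15 immediate early genes, Ier3 rose, from 254, 288 and 285 to 506, 535 and 662 (1.03, SE 0.13, adjusted p = 0.00819), and the median of the list was 0.01. Etv5 was not called without control replicate 2 or the array labelled Mig-6 d/d replicate 3, and Dusp4 also not without replicate 1, control replicate 1 or, of the double knockout, replicate 1 (adjusted p up to 0.112).

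The steroid receptors were not called. Esr1 read 1638, 1555 and 1975 in control and 2051, 1489.7 and 1664 in Mig-6 d/d (log2 fold change 0.01, SE 0.14, adjusted p = 0.993). Pgr, of which 1 allele carries cre in Mig-6 d/d, read 1065, 1107 and 1613 against 873, 798 and 588 (-0.74, SE 0.20, adjusted p = 0.0734) and 835 on average in the double knockout, which carries the same allele. Its groups lay apart. The allele and the loss of Mig-6 cannot be told apart here. Of 13 genes of steroid receptors and coregulators 0 were called in the limma fit (4 at an unadjusted p under 0.05), near the shares of all genes (2.54% increased and 1.8% decreased). Of 16 progesterone-responsive genes 1 fell and 0 rose, with a median of -0.28. The median was 0.01 without control replicate 2, -0.05 without control replicate 1 and -0.07 without Mig-6 d/d replicate 1. It was -0.51 without control replicate 3 and -0.47 without Mig-6 d/d replicate 2, where 3 and 2 genes fell. The arrays were mixed, with the control medians at 0.34, 0.43 and -0.30 and those of Mig-6 d/d at -0.52, 0.15 and -0.31. The gene that fell was Nr2f2, which read 545, 687 and 554 in control and 363, 319 and 361 in Mig-6 d/d (log2 fold change -0.77, SE 0.12, adjusted p = 0.0137) and kept its call without each array. In the axis from hedgehog to the stroma, 2 of 11 genes fell and 10 were lower (median -0.45), Nr2f2 and Gli1, a transcription factor that hedgehog induces, which read 117, 162 and 121 against 59.9, 86.7 and 66.8 (-0.91, SE 0.20, adjusted p = 0.0398). Markers of stroma (median -0.43, 15 of 16 lower) and of smooth muscle (median -0.64, 15 of 15 lower) moved with this list, and their part in it was not tested. Without Mig-6 d/d replicate 2, 4 genes of the list were called. Gli1 was not called without control replicate 2 or 3, the arrays labelled Mig-6 d/d replicate 1 or 3 or, of the double knockout, replicate 1 (adjusted p up to 0.129). Of 15 KLF factors, Klf4 rose (1.36, adjusted p = 0.0417) and Klf2 fell (-0.71, adjusted p = 0.0271), both lost without control replicate 2 or the arrays labelled Mig-6 d/d replicate 1 or 3, Klf4 also without control replicate 3 and double-knockout replicates 1 and 2, and Klf2 without Mig-6 d/d replicate 2 (adjusted p up to 0.140). Klf15 was at -0.45 (adjusted p = 0.137). Of 11 genes of uterine glands 1 rose, Prom1 (0.86, adjusted p = 0.0399), which was lost without control replicate 1 or 2, Mig-6 d/d replicate 1 or 3 or, of the double knockout, replicate 2 (adjusted p up to 0.129). Of 6 gland markers, 14 genes from LIF to STAT3 and 16 of prostaglandin synthesis and receptors 0 were called in the limma fit (0, 3 and 3 at an unadjusted p under 0.05), again near the shares of all genes. Foxa2, the gland factor, read 50.9, 58.6 and 64.1 against 42.2, 50.7 and 51.5 (-0.26, adjusted p = 0.550), and Il6st, the shared receptor chain of LIF, 817, 929.6 and 882 against 665, 629.6 and 597, which was under the fold limit (-0.47, adjusted p = 0.0313).

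Genes of the stroma, of vessels and of muscle were lower in the same arrays that had the higher epithelial marker levels, whose part in this was not tested. Of 17 stromal transcription factors 7 fell, 0 rose and all 17 were lower (median -0.62). Meis2, a homeobox gene, read 542, 501 and 645 in control and 303, 246 and 284 in Mig-6 d/d (log2 fold change -1.02, SE 0.13, adjusted p = 0.00903). Osr1, a zinc finger gene of mesenchyme, read 86.9, 94.4 and 87.8 against 44.5, 49.1 and 32.3 (-1.12, SE 0.18, adjusted p = 0.0143), and Ebf1, a gene of stromal and B-cell development, 156, 191 and 121 against 52.8, 71.7 and 66.6 (-1.28, SE 0.21, adjusted p = 0.0141). The groups lay apart in each, and Meis2 kept its call without each array, whereas Osr1 and Ebf1 were lost without control replicate 2 and Ebf1 without the array labelled Mig-6 d/d replicate 1 (with adjusted p up to 0.0560). With an array left out, 3 to 8 of the 17 were called, 3 without control replicate 2 and 4 without the array labelled Mig-6 d/d replicate 1. Of 25 genes of the stromal matrix 3 fell and all 25 were lower (median -0.61), Sned1 (-1.29), Col5a2 (-0.61) and Col4a1 (-0.61), and of 16 stroma markers 2 fell and 15 were lower (median -0.43), Dpt (-0.64), a matrix protein gene, and Vim (-0.61), the intermediate filament of mesenchyme. The summed level of the stroma markers was 31860 to 36310 in control and 25886 to 30992 in Mig-6 d/d. These 5 genes were not called without control replicate 2 or the arrays labelled Mig-6 d/d replicate 1 or 3 (adjusted p up to 0.141), nor, for Col5a2, Col4a1 and Vim, without control replicate 1, Mig-6 d/d replicate 2 or 2 or more of the double-knockout arrays, nor, for Sned1, without control replicate 3. The matrix list had 0 genes called without control replicate 2 or either of those arrays, 1 without Mig-6 d/d replicate 2 or, of the double knockout, replicate 3, and 11 without control replicate 3, and the stroma list 0 without the same first 3 arrays, 1 without double-knockout replicate 1 or 3, 3 without control replicate 1 and 4 without control replicate 3.

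Of 18 endothelial markers 7 fell, 0 rose and 17 were lower, with a median of -0.73. The other marker stood at 1.08, further from 0 than the largest decrease (-1.04). All 18 had an unadjusted p under 0.05 in limma, and without control replicate 3, 1 marker was called increased. Ptprb, a phosphatase of vessels, read 138, 155 and 153 in control and 94.4, 65.0 and 79.3 in Mig-6 d/d (log2 fold change -0.92, SE 0.13, adjusted p = 0.0104) and kept its call without each array. Tek, the angiopoietin receptor, read 132, 97.6 and 110.4 against 48.3, 45.4 and 74.0 (-1.04, SE 0.20, adjusted p = 0.0267), its ligand Angpt1 22.6, 16.3 and 16.3 against 10.8, 9.94 and 6.32 (-1.05, SE 0.23, adjusted p = 0.0369), and the cadherin of vessels Cdh5 fell by 0.88. Hspa12b, a heat shock gene of endothelium, read 42.0, 48.4 and 32.2 against 19.9, 17.6 and 19.4 (-1.09, adjusted p = 0.0134) and kept its call. The summed level of the 18 markers was 2429 to 2781 in control and 1635 to 1964 in Mig-6 d/d, without overlap, and in the double knockout their median log2 fold change against the same control arrays was -0.10. Tek, Angpt1 and Cdh5 were lost without control replicate 2 or the array labelled Mig-6 d/d replicate 1 (with adjusted p up to 0.0924), Tek and Angpt1 also without replicate 2, and Angpt1 without control replicate 1 or 3, Mig-6 d/d replicate 3 (adjusted p = 0.0974) or double-knockout replicate 2, and the list had 1 gene called without control replicate 2, 1 without Mig-6 d/d replicate 1 and 4 without Mig-6 d/d replicate 2. Of 15 smooth muscle markers all 15 were lower (median -0.64) and Synpo2, an actin-binding protein gene, fell (-0.93, adjusted p = 0.0217). The median stood at -0.35, -1.16 and -0.44 in the Mig-6 d/d arrays, the lowest in replicate 2, and was -0.39 without it. Synpo2 was lost without control replicate 2 or Mig-6 d/d replicate 1 (adjusted p = 0.0763 and 0.0630). Of 14 genes of the IGF system 3 fell, Igf2 (-0.9995), Igfbp3 (-0.90) and Igfbp6 (-0.68), and of 16 imprinted genes 15 were lower and 2 fell, Igf2 and Ndn, which read 338, 384 and 356 against 204, 219 and 174 (-0.86, SE 0.12, adjusted p = 0.0104) and kept its call without each array. The 3 IGF genes were each lost without control replicate 2 or any of the arrays labelled Mig-6 d/d, Igf2 and Igfbp3 also without control replicate 3, Igf2 without double-knockout replicate 1, and Igfbp6 without control replicate 1 and any double-knockout array (adjusted p up to 0.138), and without control replicate 2 or any Mig-6 d/d array 0 genes of the list were called. Igfbp3 stood at 207 in the double knockout, near its 192 in Mig-6 d/d and below its 358 in control (log2 difference between the knockouts 0.10, adjusted p = 0.833).

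**Figure D4:**
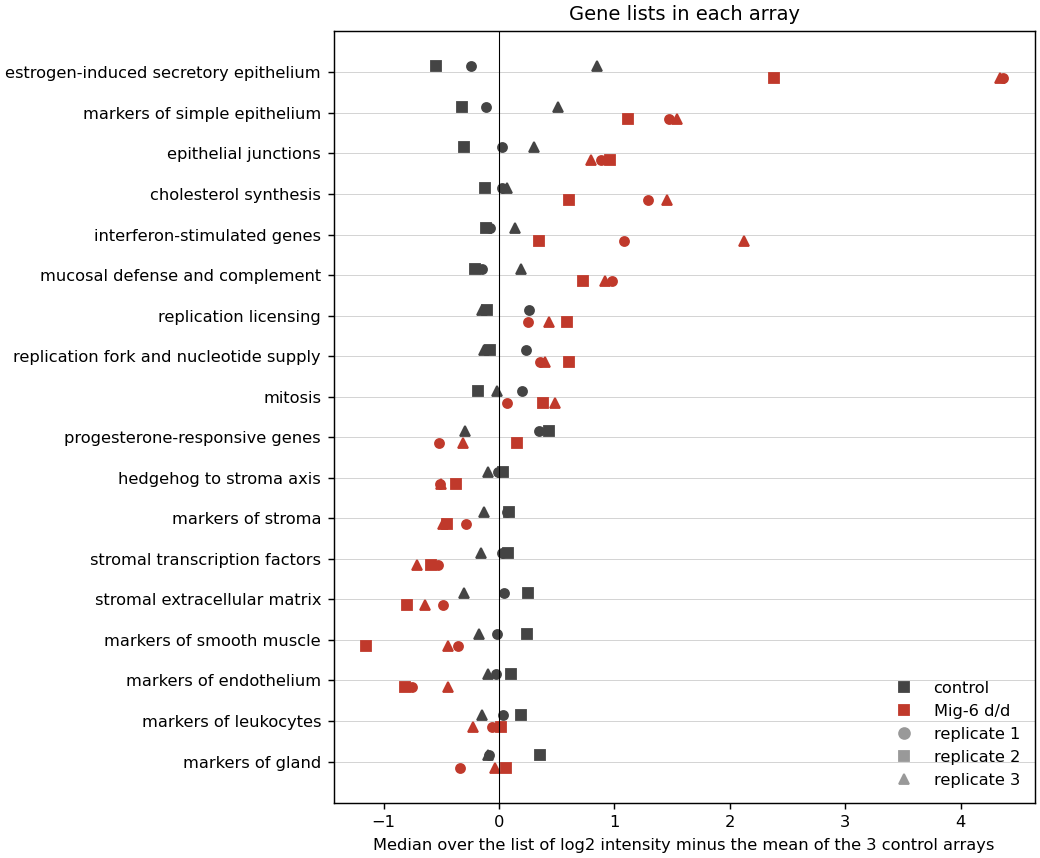
Median, over the measured genes of each list, of the log2 intensity minus the mean of the 3 control arrays, for the control (grey) and Mig-6 d/d (red) arrays, with the replicate number as the symbol. Markers of simple epithelium stand at 1.11 to 1.55 in Mig-6 d/d and markers of endothelium at -0.82 to -0.44, both apart from control, while progesterone-responsive genes and mitosis overlap.

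In each list of immune and other cell types 0 or 1 gene was called, where 2.54% of all genes rose and 1.8% fell. These counts are no result about the cell types. Of 18 interferon-stimulated genes 17 were higher and 14 had an unadjusted p under 0.05, but 1 rose, Xaf1 (0.89, adjusted p = 0.0369). The median of the list was 1.18, with 1.08, 0.35 and 2.12 in the 3 Mig-6 d/d arrays against -0.11 to 0.14 in control. Replicate 3 was thus the highest and replicate 2 the closest to control, and without replicate 2, 10 genes were called. Xaf1 was lost without control replicate 2 or 3, Mig-6 d/d replicate 1 or 3 or, of the double knockout, replicate 1 or 3 (adjusted p up to 0.109). Of 8 genes of MHC class II, 11 of leukocytes, 13 of natural killer cells, 12 of granulocytes, 2 of erythroid cells, 5 of adipocytes, 10 of ovary and oviduct, 7 of mesothelium and 7 of preimplantation embryos, 0 were called in the limma fit (0, 2, 1, 1, 0, 0, 2, 2 and 0 at an unadjusted p under 0.05). Of 12 macrophage markers, 9 were lower and 3 higher (median -0.22), with log2 fold changes from -0.67 to 1.14. Csf1r, the receptor that macrophages need, fell at 1 of its 3 probe sets, from 319.7, 366 and 313 to 232, 212 and 184 (-0.67, SE 0.14, adjusted p = 0.0326). It was lost without control replicate 2 or any of the arrays labelled Mig-6 d/d (adjusted p up to 0.108). The marker at 1.14 was not called, and without double-knockout replicate 2, 1 marker was called increased. Fabp4, a marker of adipocytes, varied among the arrays at 21.2, 88.5 and 31.5 against 6.95, 4.99 and 56.0.

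Other signaling families were called in 0 to 2 members each, which is close to the 2.54% and 1.8% of all genes called in each direction and is no result about the families. Of 12 genes of FGF ligands and receptors Fgf18 rose (0.91, adjusted p = 0.0364), of 16 Notch genes Hes1, its target, rose (0.71, adjusted p = 0.0297), and of 37 WNT genes Lgr4, a receptor of R-spondins, rose (0.67, adjusted p = 0.0293) and Rspo3, an R-spondin of the stroma, fell (-0.71, adjusted p = 0.0442). Of 29 genes of BMP and TGF-beta signaling Tgfb2 fell (-0.86, adjusted p = 0.0279), and of 16 genes of retinoid metabolism 0 were called in the limma fit (6 at an unadjusted p under 0.05). The retinoic acid carriers Crabp1 and Crabp2 lay in opposite directions without passing the test. Crabp1 read 51.3, 38.9 and 72.0 against 10.6, 21.8 and 16.2 (-1.75, SE 0.43, adjusted p = 0.0565), and Crabp2 13.3, 7.14 and 29.6 against 117, 58.9 and 47.1 (2.28, SE 0.62, adjusted p = 0.0753). The 5 called genes were each lost without control replicate 2 or any array labelled Mig-6 d/d, Fgf18, Hes1 and Rspo3 also without control replicate 1, Rspo3 without control replicate 3, Fgf18 without any and Rspo3 without the first of the double-knockout arrays (adjusted p up to 0.118).

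**Figure D5:**
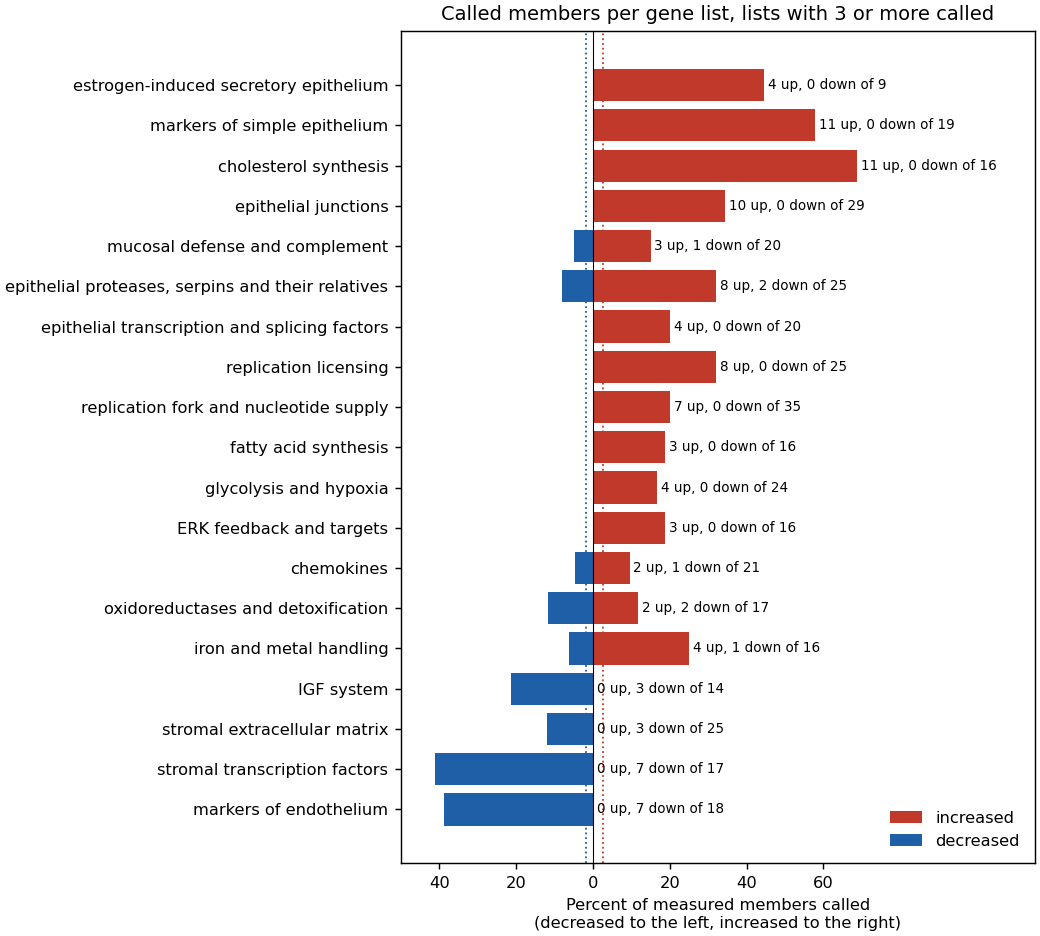
Percent of measured members called increased (red, to the right) or decreased (blue, to the left) in the 19 gene lists with 3 or more called members, ordered by median log2 fold change; dotted lines are the shares over all genes, 2.54% and 1.8%. Cholesterol synthesis has the highest share increased (11 of 16) and stromal transcription factors the highest share decreased (7 of 17).

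Of the 15 largest decreases, Efhd1, which encodes a mitochondrial calcium-binding protein, read 34.3, 37.6 and 40.8 in control and 17.6, 15.7 and 14.2 in Mig-6 d/d (log2 fold change -1.25, SE 0.13, adjusted p = 0.00495). Ptprd, a receptor phosphatase gene with 3 of 7 probe sets decreased, read 85.1, 107 and 102 against 56.0, 37.8 and 45.2 (-1.09, SE 0.16, adjusted p = 0.0115). Both kept their calls without each array. Cplx2, a gene of vesicle fusion, read 111, 129.5 and 84.9 against 46.5, 54.3 and 48.3, and stood at 41.0 in the double knockout. Between the 2 knockouts, the opposite call was made for 370 of the 463 increased and 221 of the 328 decreased genes. This comparison shares the Mig-6 d/d arrays on which these genes were called, so the opposite direction is favoured in advance. The share of all genes called between the knockouts is not given here, and the counts are a description. The genes at either side of the floxed and the cre-bearing locus were read for effects of position. Of the 10 nearest measured genes on each side of Errfi1, and on each side of Pgr, 0 of 20 and 0 of 20 were called by limma (2 and 4 at an unadjusted p under 0.05). Over all genes 4.35% were called and 24.0% had an unadjusted p under 0.05, so these counts are no result about position. Near Pgr, Mmp7, a matrix metalloproteinase gene of epithelium, was at 1.07 (adjusted p = 0.0777, limma) and Endod1 at 1.02 (adjusted p = 0.0533). Both were named after their values had been seen. Across the genome, 27 of 18119 pairs of neighbouring genes both rose and 12 both fell, and the 1 run of 3 or more was Naip2, Naip5 and Naip6 on chromosome 13, inflammasome receptor genes with log2 fold changes of 1.33, 1.78 and 1.44. They were named after their values had been seen. Naip2 was lost without control replicate 2 or the array labelled Mig-6 d/d replicate 1. These are near-identical copies, so shared probes cannot be told apart from separate increases.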

How the data were processed

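RNA of whole uteri was hybridised to Affymetrix mouse genome arrays, 9 in all. The authors normalized them by robust multichip averaging with quantile normalization in Bioconductor (no version stated) and deposited linear intensities, from 2.11 to 11548.76, with array medians of 7.87 to 8.24. The number of arrays limits the precision. Log2 values were taken here. The 3 groups were fitted in 1 model with limma 3.58.1 in R 4.3.3 (p-values adjusted by Benjamini-Hochberg over all 45037 probe sets), and calls needed an adjusted p under 0.05 and more than 1.5-fold. The fit was also run on simulated data with independent noise in each array, and the outcome is not given here. Such data cannot speak to shared pools or to the labels of the arrays. Of the probe sets, 34945 had 1 gene symbol, 932 several and 9160 none in the platform annotation, and 34741 matched a RefSeq entry. Groups came from the array titles.

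Named genes were the deleted gene, its receptor partners and Pgr, the 25 largest increases and 15 largest decreases, up to 6 members of each list (the 3 largest called changes each way, or the 2 of smallest p), genes the study names, the 10 largest changes called without each array, the 5 with most called probe sets, called neighbours of the deleted and cre-bearing genes, and called replication genes with E2F words. The text names fewer. The members and the 59 lists of 1031 gene names were chosen with earlier results of these data known. Alternatives were other sample sets, filters, normalizations, variance models, weights, fold limits, the replicate number as a block, the methods' test, and each array left out. Same-numbered control and Mig-6 d/d arrays did not deviate together (correlations of -0.07, 0.034 and 0.045). With the double-knockout arrays, same-numbered arrays of these groups had correlations from -0.133 to 0.203, and arrays of different numbers from -0.303 to 0.332. Figures were drawn with matplotlib 3.10.9 in Python 3.11.15.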

Additional observations from a re-analysis of the deposited data

How the results depend on the processing

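Of the 173 genes named by the rule, 0 reversed under the alternatives run. Only 119 of them were called in the main fit and had a call to lose. Of these 119, 50 lost their call on only the 6 arrays compared and 80 without control replicate 2. The median of the progesterone-responsive genes moved from -0.28 to 0.01 without control replicate 2. Of the counts (772 increased and 493 decreased probe sets, 463 increased and 328 decreased genes), the fit on only the 6 arrays compared gave 390, 222, 235 and 146, and a 2-fold limit 388, 46, 256 and 24. With an array left out, they ranged from 217 to 1114, from 130 to 648, from 133 to 590 and from 83 to 421, lowest without control replicate 2 or the array labelled Mig-6 d/d replicate 1 and highest without control replicate 1. Of the genes called without control replicate 2, 130 and 64 were also called with all arrays. The methods' t-test, run on the same values, called 1029, 768, 602 and 483 unadjusted and 0 of each after Benjamini-Hochberg adjustment, and limma found 4360 genes at an unadjusted p under 0.05. Centring each array on its median gave 840 and 357 probe sets and 499 and 235 genes, and normalizing by quantiles again 739, 566, 428 and 385. With the replicate number as a block, the counts were 914, 537, 544 and 340. The labels only number the arrays, and whether the number pairs them is not stated. The counts under the remaining settings were within 1.5 times the main ones. Signal over background was not measured per probe set, so changes from the dimmest control levels are not exact.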
